A study of Mus musculus with 6 samples.

Results

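The genes described here handle iron and zinc in the liver: Hamp, Bmp6, Tfrc, Tfr2, Trf, Fth1, Slc40a1, Slc39a14, Mt1 and Mt2. Their members on the array were all probesets annotated to exactly 1 of these 10 symbols. This rule found 22 probesets for 9 of the 10 genes, out of 45101 probesets on the array. The probeset that lists Trf, the gene of transferrin, lists Srprb as well, so the rule left Trf without a probeset of its own. Of the 22 probesets, 18 were bright enough to be tested, 1 probeset of Tfrc was too dim, and 3 further Tfrc probesets are array controls and were left out of the fit. Livers of 3 KRAP-/- mice, each paired with a wild-type littermate, were taken at an age of 32 weeks on normal chow, and the RNA was read with 1 array of the type Affymetrix Mouse Genome 430 2.0 per mouse. In the KRAP-/- mice exons 11 to 16 of KRAP, the gene now listed as Itprid2, are replaced by a neomycin resistance cassette in every tissue. The line had been crossed 6 times to C57BL6/J, and the wild-type mice carry neither the deletion nor the cassette. The methods do not state the sex of the mice on the arrays.

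Iron balance is set largely by the liver. Hepatocytes secrete hepcidin, the peptide made from Hamp, which binds the iron exporter ferroportin (Slc40a1) and causes its breakdown, so that less iron leaves macrophages, hepatocytes and the gut. BMP6, made mainly by sinusoidal endothelial cells when iron is plentiful, drives Hamp through SMAD proteins, transferrin receptor 2 senses iron-loaded transferrin, and interleukin 6 drives Hamp through STAT3. Transferrin receptor 1 (Tfrc) and ZIP14 (Slc39a14) bring iron into the cell, and ferritin, of which Fth1 makes the heavy chain, stores it. The metallothioneins Mt1 and Mt2 bind zinc and copper, and their transcription answers to zinc through the factor MTF1, to glucocorticoids and to inflammation.

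The promoters of Hamp, Mt1 and Mt2 are shown because these genes carried the most variable or the best known signals of the group. RefSeq windows on GRCm38.p6, from 250 bases before to 50 bases after an annotated start, matched 7 of the 10 genes, namely Bmp6, Fth1, Hamp, Mt1, Mt2, Tfr2 and Tfrc, in 11 windows. Slc40a1, Slc39a14 and Trf were not matched. Positions count from the annotated start, and both strands were searched. The Hamp window is chr7:30943980-30944279 on the minus strand, and its capitals mark the core of a BMP response element, GGCGCC, at −109 to −104, and a STAT site, TTCNNNGAA, at −97 to −89.
Hamp: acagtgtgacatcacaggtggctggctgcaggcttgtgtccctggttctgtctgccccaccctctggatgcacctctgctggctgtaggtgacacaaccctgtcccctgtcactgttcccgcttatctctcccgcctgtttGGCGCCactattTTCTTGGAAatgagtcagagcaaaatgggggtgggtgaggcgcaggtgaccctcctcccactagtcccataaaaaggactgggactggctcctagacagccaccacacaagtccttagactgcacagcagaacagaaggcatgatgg
The Mt1 window is chr8:94178839-94179138 and the Mt2 window chr8:94172368-94172667, both on the plus strand, and their capitals mark the core of the metal response element bound by MTF1, TGCACNC or TGCGCNC on either strand.
Mt1: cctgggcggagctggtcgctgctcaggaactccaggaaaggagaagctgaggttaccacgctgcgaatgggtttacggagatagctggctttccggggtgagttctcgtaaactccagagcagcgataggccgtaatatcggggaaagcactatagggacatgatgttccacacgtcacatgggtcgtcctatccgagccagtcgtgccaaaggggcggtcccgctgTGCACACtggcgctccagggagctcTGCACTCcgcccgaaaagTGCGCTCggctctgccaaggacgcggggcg
Mt2: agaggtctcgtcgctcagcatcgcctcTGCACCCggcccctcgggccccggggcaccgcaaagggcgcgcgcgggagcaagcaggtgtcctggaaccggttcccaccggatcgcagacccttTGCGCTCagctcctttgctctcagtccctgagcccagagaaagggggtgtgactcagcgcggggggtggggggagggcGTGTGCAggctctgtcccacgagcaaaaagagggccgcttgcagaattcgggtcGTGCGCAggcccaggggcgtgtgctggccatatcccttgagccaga
The Mt1 window held 3 such cores and the Mt2 window 4, at least 3 were found in 1.31% of 32851 windows of the same length and at least 4 in 0.295%. Of the other windows, that of Bmp6 held 1 core at −124 to −118, and that of Tfrc held overlapping cores at −53 to −44 and a GGCGCC at −89 to −84. At least 1 metal response core occurred in 25.7% of all windows, GGCGCC in 11.9%, the STAT site in 8.3%, and GGCGCC with the STAT site, as in Hamp, in 0.645%. These matches are letters in a window and describe no binding.

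None of the 18 tested probesets changed past the threshold between KRAP-/- and wild-type liver, by limma (blocked by litter pair, adjusted p of 0.05), which 402 of 28531 probesets on the array, 1.41%, passed. In KRAP-/- liver 123 of the 402 were higher and 279 lower. At an unadjusted p of 0.05, 2 of the 18 passed, 1 probeset of Slc40a1 and that of Mt2, against 14.9% of all probesets. With a limit of 1.5-fold in the same direction in each of the 3 pairs, 0 of 19 member probesets passed against 5.18% of all. This limit is that of the study, but it was set here on signals divided by the array median, dim probesets included, and not on the GeneSpring values, so it does not rebuild the study's gene list. The adjusted p of the 18 lay between 0.163 and 0.979. Their log2 fold changes ran from −0.78 to 0.58 with a median of 0.02, 10 above and 8 below zero, beside a median of −0.04 over all probesets tested. For 15 of the 18, the 95% interval of the fold change lay wholly within 1.5-fold in either direction. The intervals of the other 3, Mt2, the dimmer probeset of Mt1 and 1 dim probeset of Slc39a14, reached past 2-fold. Levels were measured in whole liver, where fewer cells of a type and less RNA per cell cannot be told apart. The plot of the 18 fold changes with their intervals shows these widths side by side.

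**Figure D1:**
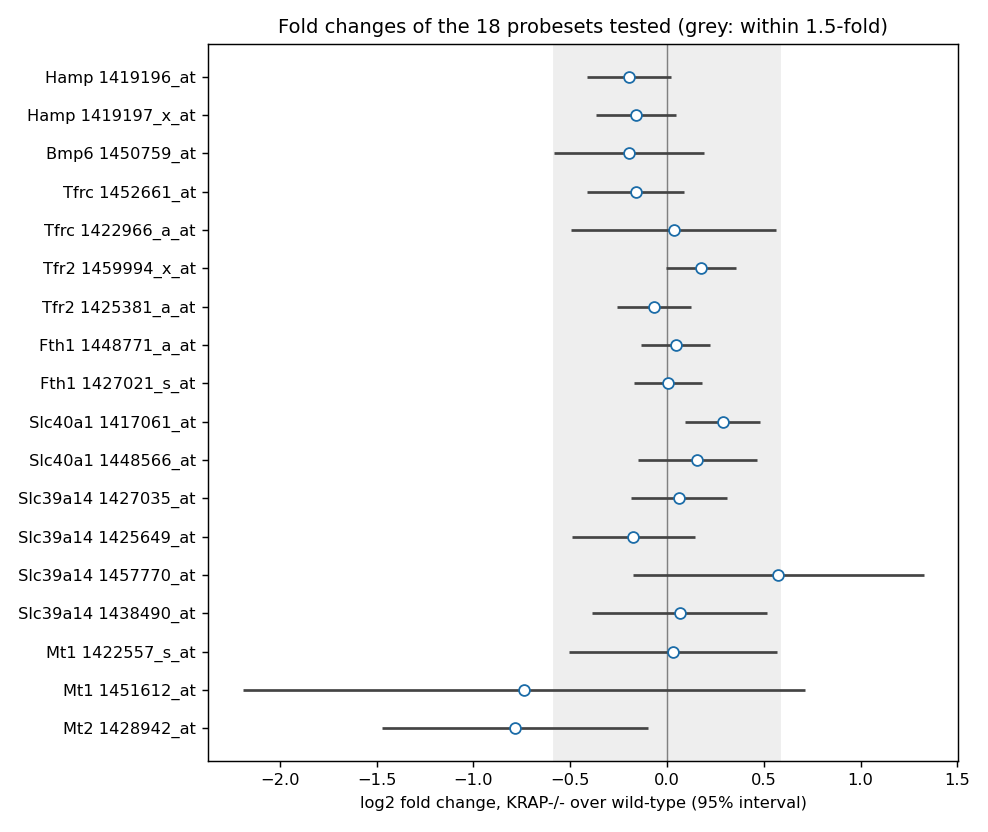
Log2 fold change of KRAP-/- over wild-type liver (x axis) for each of the 18 tested probesets of the iron and metallothionein genes (y axis). Circles are limma estimates, lines their 95% intervals, and the grey band marks changes within 1.5-fold. In 15 probesets the whole line lies inside the band, and the widest line belongs to the dim probeset of Mt1.

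Signals are given below as multiples of the median signal of each array, which was 20.2 to 23.4 in the KRAP-/- and 19.1 to 22.6 in the wild-type arrays as deposited, and they are listed for pairs 1, 2 and 3 in that order. The number of arrays limits the precision of every value. RNA integrity, read as the 3′ over 5′ signal of the beta-actin controls, gave 2.28 to 2.32 in KRAP-/- and 2.01 to 2.65 in wild-type arrays, and the Gapdh controls gave 0.709 to 0.795 against 0.729 to 0.778. The single probeset of Itprid2 read 21.6, 21.3 and 19.99 in KRAP-/- and 23.9, 24.5 and 22.3 in wild-type liver (limma adjusted p = 0.442), and since the sources do not place it inside or outside the deleted exons it checks nothing about the labels. Xist read 66.3 to 85.6 on the 6 arrays and the Y-linked genes Eif2s3y, Kdm5d and Uty at most 0.526, so all 6 livers read alike in these genes that mark sex. Markers of hepatocytes, with Alb and Apoa1 among the 6 measured, summed to 2656 to 3040 in KRAP-/- and 2718 to 2777 in wild-type liver.

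Hamp was bright in all 6 livers. Its brightest probeset (1419196_at) read 618, 468 and 414 in KRAP-/- liver and 589, 579 and 528 in wild-type liver. The KRAP-/- liver of pair 1 was the highest of the 6 and those of pairs 2 and 3 were the lowest, so the groups overlapped. The ratio within pairs was 1.05, 0.809 and 0.783, and the log2 fold change was −0.20 (standard error, SE, 0.10, 95% interval −0.41 to 0.02, limma adjusted p = 0.382). Pair 1 decided this value: without it the log2 fold change was −0.33 and the adjusted p 0.045, past the threshold, while no other alternative took it past the threshold. The other probeset (1419197_x_at), of a type whose probes can bind related transcripts, gave 582, 393 and 385 against 553, 484 and 458, with a log2 change of −0.16 (adjusted p = 0.459). It followed the same order of mice within each genotype.

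Bmp6, the ligand upstream of Hamp, was dim, at a few times the array median. Its 1 probeset (1450759_at) read 3.09, 2.96 and 2.96 in KRAP-/- and 3.20, 3.88 and 3.28 in wild-type liver. All 3 KRAP-/- values lay below all wild-type values, by ratios of 0.968, 0.763 and 0.901. The log2 fold change was −0.20 (SE 0.17, adjusted p = 0.639). Of 9 markers of sinusoidal endothelial cells, the main source of BMP6, none passed the test, and their median log2 change was −0.05. Their summed signal, 131 to 140 in KRAP-/- and 142 to 155 in wild-type liver, did not overlap either. Taken singly, only Clec4g, the brightest of the 9, did not overlap, at 41.4, 39.4 and 39.2 against 43.9, 47.8 and 45.4. Clec4g was chosen for mention with its values known, and the part of these markers in the Bmp6 values was not tested.

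Transferrin receptor 1, the route by which most cells take up transferrin-bound iron, had its brightest Tfrc probeset (1452661_at) at 10.6, 10.5 and 9.12 in KRAP-/- and 11.8, 11.1 and 10.8 in wild-type liver. Every KRAP-/- value was below every wild-type value, and the ratios were 0.899, 0.942 and 0.843. The log2 fold change was −0.16 (SE 0.11, 95% interval −0.41 to 0.09, adjusted p = 0.537). A dimmer probeset (1422966_a_at), at 1.78, 1.68 and 1.78 against 1.56, 1.60 and 1.99, overlapped between genotypes. It gave 0.03 (adjusted p = 0.963), near zero, so it did not share the separation of the brighter one. The probeset left untested as too dim (1422967_a_at) read 0.129 to 0.729. The 3 Tfrc control probesets, which lie at the 3′ end, the middle and the 5′ end of the transcript, read 0.488 to 0.914, 0.036 to 0.390 and 0.135 to 0.418.

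For transferrin receptor 2, the hepatocyte sensor of iron-loaded transferrin, the brighter probeset separated the genotypes and the other did not. The brighter probeset of Tfr2 (1459994_x_at) is of a type whose probes can bind related transcripts. It read 240, 209 and 209 in KRAP-/- and 194, 193 and 195 in wild-type liver. The wild-type livers were almost equal and all lay below the KRAP-/- livers. This was a log2 change of 0.17 (SE 0.08, 95% interval −0.01 to 0.36, adjusted p = 0.356). The other (1425381_a_at) read 113, 99.5 and 88.3 against 108, 104 and 101, with overlapping groups and a log2 change of −0.07 (adjusted p = 0.758).

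ZIP14, which imports iron not bound to transferrin as well as zinc, was measured by 4 probesets of Slc39a14. The brightest (1427035_at) read 41.0, 36.3 and 28.0 in KRAP-/- and 37.2, 30.3 and 32.5 in wild-type liver, with a log2 change of 0.06 (SE 0.11, adjusted p = 0.837). The KRAP-/- range was wider and took in all wild-type values. The 3 dimmer ones had log2 fold changes of −0.17, 0.58 and 0.07, with adjusted p between 0.463 and 0.911. The 0.58 (1457770_at) rested on pair 1, where the ratio was 3.32 against 0.794 and 1.25 in pairs 2 and 3, and without pair 1 the log2 fold change was −0.0028.

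Slc40a1, ferroportin, had the smallest adjusted p of the group. Its brightest probeset (1417061_at) read 132, 121 and 117 in KRAP-/- and 96.6, 102 and 104 in wild-type liver. All KRAP-/- livers lay above all wild-type livers, with ratios of 1.37, 1.18 and 1.13. The fold change was 1.22, or 0.29 on the log2 scale (SE 0.09, 95% interval 0.09 to 0.48), with an unadjusted p of 0.0084 and an adjusted p of 0.163 over all probesets. The adjusted p ranged from 0.099 to 0.498 over the alternatives and passed in none. The other probeset (1448566_at), at 40.7, 37.1 and 27.3 against 27.9, 33.3 and 32.1, overlapped, with ratios of 1.46, 1.11 and 0.850 and a log2 change of 0.16 (adjusted p = 0.639). Ferroportin is also made by Kupffer cells, the macrophages of the liver. The summed signal of 8 Kupffer cell markers was 176 to 187 in KRAP-/- and 205 to 240 in wild-type liver, so it was lower where the brighter Slc40a1 probeset was higher, and its part in the Slc40a1 values was not tested.

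Fth1, the heavy chain of ferritin, varied least. Its brighter probeset (1448771_a_at) read 554, 506 and 529 in KRAP-/- and 500, 533 and 507 in wild-type liver, with a log2 change of 0.04 (SE 0.08, adjusted p = 0.840). The highest and lowest liver differed only 1.11-fold, a smaller ratio than in all but 0.747% of the probesets tested. The other probeset (1427021_s_at) read 417, 370 and 369 against 384, 376 and 389, with a log2 change of 0.01 (adjusted p = 0.979). The 95% interval of the brighter one, 0.911-fold to 1.17-fold, was among the narrowest of the group. Ferritin and Tfrc are controlled in large part through their messages by iron regulatory proteins, which changes translation of ferritin more than its RNA level.

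Across the group, 4 probesets did not overlap between genotypes. Those of Slc40a1 and Tfr2 were higher in all 3 KRAP-/- livers, 2 of 18 against 7.80% of all probesets, and those of Bmp6 and Tfrc were lower, 2 of 18 against 12.3%. These shares were near those of the whole array and are no result about iron genes. The same 4 and 1 dim probeset of Slc39a14 were the only ones of the 18 with 1 direction in all 3 pairs. The plot of the signals by mouse shows the brightest probeset of each gene.

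**Figure D2:**
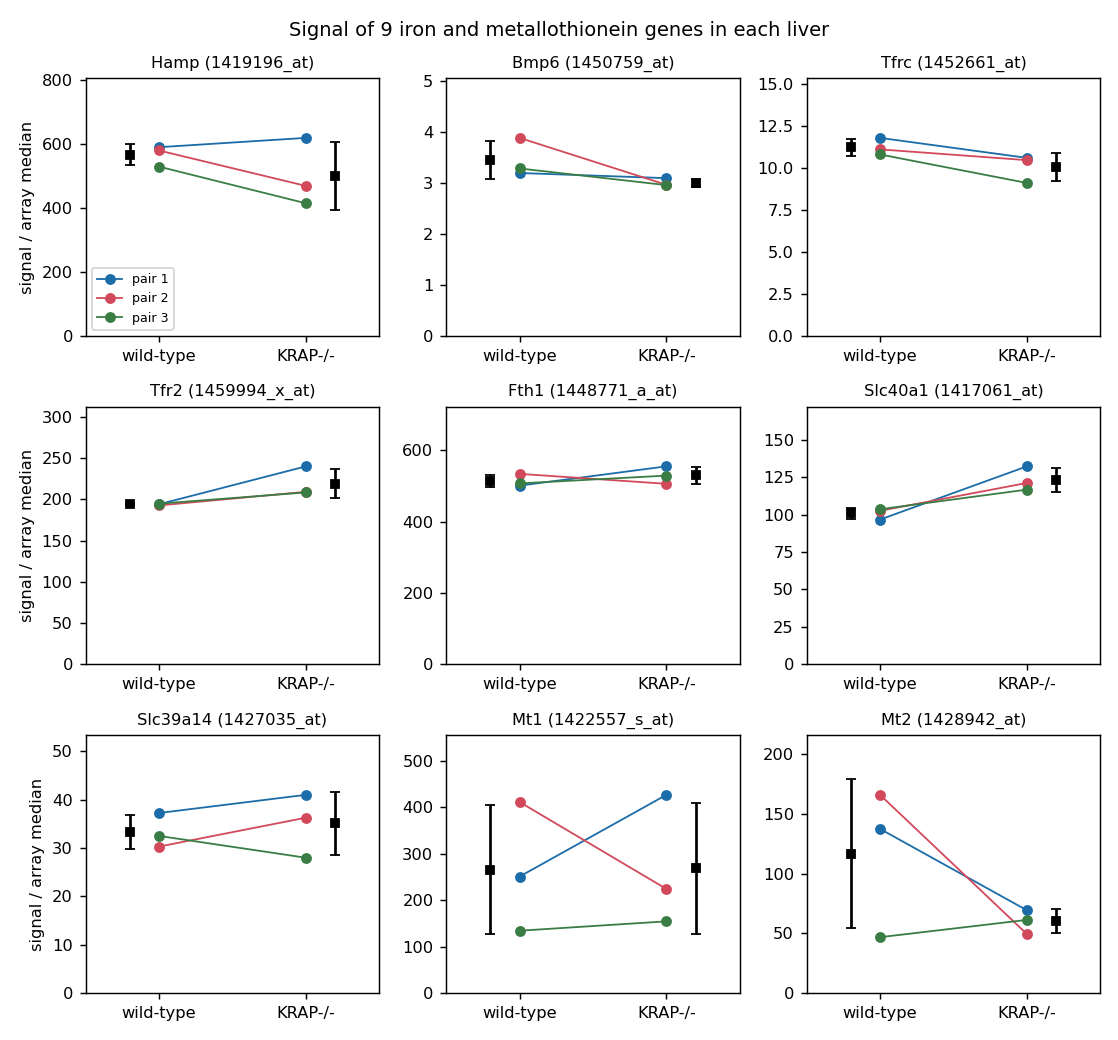
Signal divided by the array median (y axis, from zero) at the brightest probeset of each of the 9 measured genes in wild-type and KRAP-/- liver. Coloured lines join littermates of pairs 1, 2 and 3, and the squares beside them mark means, with 1 SD either way over 3 livers. Slc40a1, Tfr2, Bmp6 and Tfrc separate the genotypes by small steps, and Mt1 and Mt2 have the widest relative range of the 9 panels.

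The metallothioneins were the least even genes of the group. Mt1 at its bright probeset (1422557_s_at) read 427, 224 and 154 in KRAP-/- and 251, 412 and 134 in wild-type liver. The KRAP-/- liver was the higher one in pair 1, the lower one in pair 2 and close to its littermate in pair 3, with ratios of 1.70, 0.544 and 1.15. The means were 269 ± 142 (SD, n = 3) and 266 ± 139, and the log2 fold change was 0.03 (SE 0.24, 95% interval −0.51 to 0.57, limma adjusted p = 0.967). Leaving out a pair moved it between −0.34, without pair 1, and 0.49, without pair 2. Within genotypes the SD of log2 signal was 0.778, larger than in 90.0% of all probesets tested, while the median over the 18 members was 0.207 and that over all probesets 0.247.

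Mt2 differed from Mt1 in its pattern. Its 1 probeset (1428942_at) read 69.2, 49.2 and 61.2 in KRAP-/- and 137, 166 and 46.7 in wild-type liver. The KRAP-/- livers were alike, the wild-type livers of pairs 1 and 2 were far above them, and the wild-type liver of pair 3 was the lowest of all 6. The ratios were 0.504, 0.297 and 1.31, and the log2 fold change was −0.78 (SE 0.30, 95% interval −1.47 to −0.10) with an unadjusted p of 0.029 and an adjusted p of 0.274. Pair 3 decided the call: without it the log2 fold change was −1.37 with an adjusted p of 4.9e-04, and without pair 2 it was −0.30.

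The dim probeset of Mt1 (1451612_at) read 1.04, 0.695 and 1.56 in KRAP-/- and 4.41, 2.58 and 0.464 in wild-type liver. As for Mt2, the wild-type liver of pair 3 was the lowest of the 6 and those of pairs 1 and 2 were the highest. The log2 fold change was −0.74 (SE 0.64, adjusted p = 0.636), and −1.99 with an adjusted p of 0.0051 without pair 3. The 2 probesets of Mt1 thus went opposite ways in pair 1 and the same way in pairs 2 and 3, and the mean change of the bright one lay near zero. The bright one, of a type that can bind transcripts of related genes, may not measure Mt1 alone. The log2 ratio of Mt2 minus that of Mt1 at the bright probeset was −1.76, −0.88 and 0.19 in the 3 pairs, with a mean of −0.82 ± 0.97 (SD, n = 3 pairs). The plot of the ratios by pair sets these beside the other genes.

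**Figure D3:**
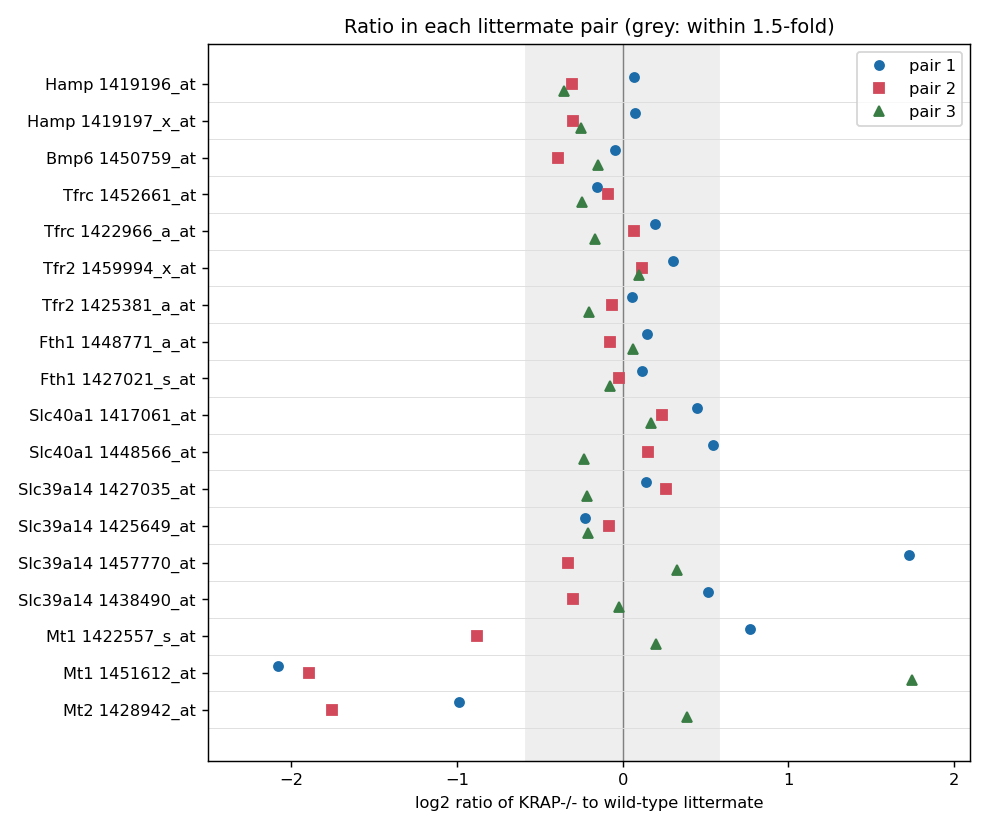
Log2 ratio of the KRAP-/- liver to its wild-type littermate (x axis) for each of the 18 tested probesets (y axis), with circles for pair 1, squares for pair 2 and triangles for pair 3. The grey band marks ratios within 1.5-fold. Only the probesets of Mt1 and Mt2 and 1 of Slc39a14 leave the band, and pair 3 lies on the other side of zero from pairs 1 and 2 for Mt2 and for the dim probeset of Mt1.

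For the brightest probesets of Hamp, Mt1 and Tfrc, the genes with the most similar pattern over the 6 arrays were sought by Pearson correlation of log2 signal. This is a description over 6 arrays that share pairs and genotypes. For Hamp they were 2610044O15Rik8 (r = 0.994), Kif21b (0.990) and Ppm1a (0.990), for Mt1 they were Trmt10c (0.989), Sfxn2 (0.988) and Phip (0.986), and for Tfrc they were Efnb1 (0.996), Ddx18 (0.994) and Tollip (0.993). High correlations arise for many probesets with so few arrays: of 23800 named probesets compared, 338, 118 and 541 exceeded 0.9 for Hamp, Mt1 and Tfrc. These counts can include other probesets of the same gene, and how many reached the values listed above was not counted.

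The pathways around these genes were read at the brightest probeset of each gene. Of 20 tested genes of the hepcidin pathway, that is BMP ligands, their receptors, SMAD proteins, HFE-related genes, BMP target genes and Hamp2, a relative of Hamp, 0 passed as higher and 1 as lower, with a median log2 change of 0.00. The 1 was not an input of the pathway but Id3, a target of BMP and SMAD signalling, which read 25.7, 18.3 and 14.9 in KRAP-/- and 34.1, 29.2 and 26.2 in wild-type liver. The groups did not overlap, and Id3 fell by 0.63 on the log2 scale (SE 0.11, adjusted p = 0.026). In a fit that ignored the litter pairs its adjusted p was 0.134. None of the other 5 targets in the list passed. Their log2 fold changes were −0.22 for Id1 (adjusted p = 0.504), −0.05 for Id2 (0.854), 0.13 for Smad6 (0.697), 0.05 for Smad7 (0.910) and 0.32 for Atoh8 (0.578), so they lay on both sides of zero, and they were picked for mention with their values known.

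Of 14 tested genes of iron uptake, export and control by iron regulatory proteins, 0 passed in either direction and 0 had an unadjusted p under 0.05, with a median of −0.01. The 2 with the largest log2 fold changes were Heph, a ferroxidase, with 0.32 (adjusted p = 0.839) and Slc11a2, the importer DMT1, with −0.23 (adjusted p = 0.494). Heph was dim, below the array median in every liver, and its ratios within pairs were 2.62, 0.673 and 1.11. Of 12 genes that scavenge or break down heme and hemoglobin, 0 passed and 1 had an unadjusted p under 0.05, with a median of 0.02. Over all probesets tested 14.9% had an unadjusted limma p under 0.05, so counts this low in such short lists are no result about these genes. Lcn2, lipocalin 2, which binds bacterial siderophores and belongs to the acute phase response, came nearest with 0.55 (adjusted p = 0.064), followed in size by Flvcr2 with 0.41 (adjusted p = 0.380).

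Of 8 tested genes of heme synthesis, 1 rose, none fell, and the median was −0.09. Cpox, coproporphyrinogen oxidase, read 42.5, 32.4 and 44.6 in KRAP-/- and 20.8, 16.6 and 29.5 in wild-type liver. All 3 KRAP-/- livers were above all wild-type livers, and the log2 fold change was 0.86 (SE 0.11, adjusted p = 0.0067). It had an adjusted p of 0.060 without the block. Of the 8, 3 had an unadjusted limma p under 0.05, against 14.9% of all probesets, and these were Cpox, Uros and Ppox. Uros and Ppox lay below zero, at −0.37 (adjusted p = 0.124) and −0.36 (adjusted p = 0.264), and were chosen for mention with their values known.

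Zinc, glucocorticoids and inflammation are known inputs of the metallothioneins. The 11 tested genes of zinc handling and other metallothioneins held 0 that passed, with a median of −0.03. They held 0 with an unadjusted p under 0.05, against 14.9% of all probesets, which is no result in so short a list. The largest values were those of the zinc importers Slc39a5, 0.66 (adjusted p = 0.795), which was dim, and Slc39a6, 0.35 (adjusted p = 0.565). Of 8 glucocorticoid targets 0 passed and the median was 0.24, and the largest values were those of Zbtb16, 0.45 (adjusted p = 0.406), and Per1, 0.41 (adjusted p = 0.382). An unadjusted p under 0.05 was found for 3 of the 8, against 14.9% of all probesets, and they did not share a direction: 0.25 for Tsc22d3, 0.24 for Pck1 and −0.28 for Dusp1, with adjusted p of 0.243, 0.270 and 0.287. Of 18 genes of the acute phase response to interleukin 6, 2 rose and none fell, with a median of 0.05. Orm2, an acute phase glycoprotein, read 32.9, 108 and 41.9 in KRAP-/- and 18.2, 18.8 and 21.0 in wild-type liver, and Il6ra, the interleukin 6 receptor, 13.2, 15.0 and 10.3 against 6.55, 9.26 and 6.98.

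Neither gene overlapped between the groups, and the KRAP-/- liver of pair 2 stood far above the others in Orm2. Orm2 had a log2 change of 1.46 (SE 0.26, adjusted p = 0.035), 0.92 without pair 2, and Il6ra 0.76 (SE 0.13, adjusted p = 0.026). Without the block they had adjusted p of 0.066 and 0.063, and Il6ra did not pass without pair 1 (adjusted p = 0.072). Crp, C-reactive protein, went the other way without passing, with 183, 175 and 194 in KRAP-/- against 228, 239 and 206 in wild-type liver and a log2 change of −0.29 (adjusted p = 0.184), all KRAP-/- livers below all wild-type livers. Crp, Saa1 with −0.14 (adjusted p = 0.807) and Fgb with 0.12 (adjusted p = 0.529) were chosen for mention after their values were seen.

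Markers of the cell types a liver sample can hold were read the same way. Of 8 Kupffer cell markers 1 fell, and all 8 log2 fold changes were below zero. Their median was −0.37, beside −0.04 over all probesets tested. Of the 8, 4 had an unadjusted limma p under 0.05, against 14.9% of all probesets. The marker that fell was Clec4f, a lectin of these cells, at 22.5, 24.0 and 22.9 in KRAP-/- and 31.6, 34.8 and 34.1 in wild-type liver. Its log2 fold change was −0.54 (adjusted p = 0.025), and 0.071 was its adjusted p with the values as deposited. Of 9 endothelial markers 0 passed, with a median of −0.05, and the largest values were −0.20 for Stab1 (adjusted p = 0.581) and −0.20 for Lyve1 (adjusted p = 0.656). Of 10 erythroid markers listed 6 were on the array, 3 were bright enough to test and 0 passed. The 6 summed to 14.6 to 16.4 in KRAP-/- and 12.8 to 16.5 in wild-type liver. Alas2, chosen for mention with its values known, had the highest mean, 8.22 in KRAP-/- and 8.80 in wild-type liver. Its log2 fold change was −0.12 (adjusted p = 0.708). Hba-a1, a hemoglobin chain and a defining marker, read 0.215 to 0.720, below the array median throughout. The amount of hemoglobin RNA in these livers was not tested. Klf1 was at 0.38 on the log2 scale (adjusted p = 0.489), and Slc4a1 read 0.986, 0.809 and 1.19 in KRAP-/- and 0.090, 0.948 and 0.765 in wild-type liver (adjusted p = 0.453), with the 0.090 under the floor, so that no fold is given. Of 6 hepatocyte markers 0 passed, with a median of 0.04, and the largest values were −0.25 for Tat (adjusted p = 0.383) and 0.22 for Apob (adjusted p = 0.261). Of 3 adipocyte markers 1 could be tested, Adipoq, which read 0.144, 0.032 and 0.253 in KRAP-/- and 2.20, 0.694 and 0.444 in wild-type liver (adjusted p = 0.252). It was dim in both genotypes and 1 KRAP-/- value lay under the floor of 0.1, which sets its fold, so none is given. No call named here for a gene of these lists passed without the intensity trend or without the limit on dim probesets, and each list stands in the plot of the wider pathways.

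**Figure D4:**
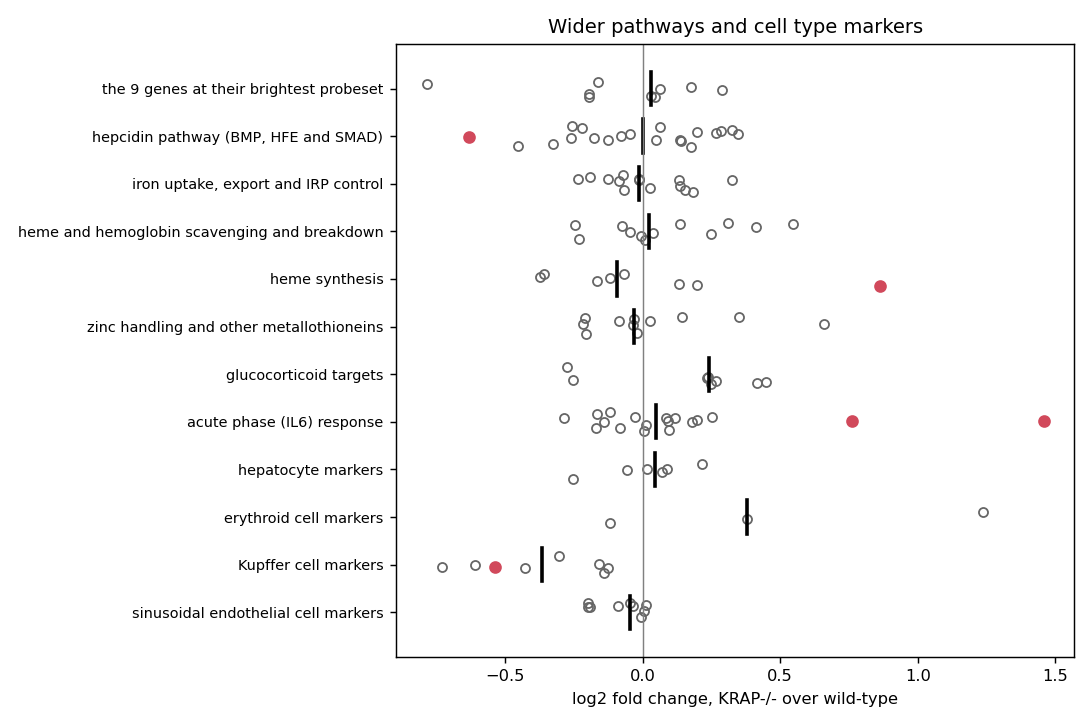
Log2 fold change of KRAP-/- over wild-type liver (x axis) at the brightest probeset of each tested gene, in rows for the 9 measured iron and metallothionein genes, 7 pathway lists and 4 lists of cell type markers, with the adipocyte list left out. Filled red points passed an adjusted p of 0.05 in limma, open points did not, and black bars are medians. The 5 filled points are Id3, Cpox, Orm2, Il6ra and Clec4f, and the first row has none.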

How the data were processed

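What the authors deposited are signal intensities on a linear scale from the GCOS software (version not given in the sources used here), and the GeneSpring normalization described in the methods is not in them. Signals were divided by the array median, 64 control probesets were left out of 45101, and 45037 remained. Symbols came from the platform annotation, which gave 1 symbol to 34945 of these probesets, several to 932 and none to 9160. Values under 0.1 were set to 0.1 before log2. A mean of 0.5 or more was required, which 28531 probesets met, and limma 3.58.1 in R 4.3.3 was run with pair as a block and eBayes with an intensity trend. Tests were 2-sided, with Benjamini-Hochberg adjustment over all probesets tested and a threshold of 0.05. The fit was also run on simulated data with independent noise and no pair effects. That run cannot check the block, the floor or the limit on dim probesets.

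Pairing rests on the statement that same-numbered mice were littermates. The correlations between littermates of deviations from the genotype means were 0.043, 0.0095 and −0.012. Nothing beyond this says how the 3 mice of a genotype were raised. With pair as a block, p-values measure the spread of the difference between littermates over these 3 pairs, moderated by eBayes with the intensity trend.

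The members, the 7 pathway lists, the 5 marker lists and the tests were chosen with earlier results of these data known. Named are all member probesets, up to 4 genes of each list past the threshold or otherwise the 2 with the largest change, and the 3 genes most like Hamp, Mt1 and Tfrc. The defining markers Alb, Apoa1 and Hba-a1, genes named for an unadjusted p under 0.05, and genes said to be chosen with their values known, stand outside this rule. Alternatives were: values as deposited, quantile normalization, a floor of 0.01, a pseudocount of 0.25, no limit on dim probesets or a mean of at least 1, no pair block, no intensity trend, no probesets that may cross-hybridize, leaving out each pair and, chosen after seeing the data, control probesets kept. Tables were made with pandas 2.3.3 and numpy 2.4.6, and figures with matplotlib 3.10.9, under Python 3.11.15. Promoter windows came from RefSeq (GRCm38.p6).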

Additional observations from a re-analysis of the deposited data

How the results depend on the processing

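Of 230 values for single member probesets under the alternatives, 217 kept their direction and their side of the threshold, 10 changed sign and 3 newly passed. The 3 were Hamp without pair 1 and, without pair 3, Mt2 and the dim probeset of Mt1, so the count of members passing as lower, 0, ranged from 0 to 2 when a pair was left out, and so did the count under the 1.5-fold filter, where the 2 were the same Mt2 and Mt1 probesets. No value that changed sign had passed. With quantile normalization that of Fth1 at its dimmer probeset (1427021_s_at) was −0.0059. Leaving out a pair gave log2 fold changes from −0.047 to 0.13 for Tfrc (1422966_a_at), −0.0082 to 0.10 and −0.049 to 0.048 for the brighter and the dimmer probeset of Fth1, −0.039 to 0.35 for Slc40a1 (1448566_at), −0.038 to 0.20, −0.0028 to 1.03 and −0.16 to 0.25 for Slc39a14 (1427035_at, 1457770_at and 1438490_at), and −0.34 to 0.49 for Mt1 (1422557_s_at), which was −0.055 without pair 3. Without the pair as a block 0 members passed (1 at an unadjusted p under 0.05), with 93 probesets higher and 255 lower over the array, and the block changed no call of a member, while Id3, Cpox, Orm2 and Il6ra passed only with it.

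Over all probesets, 123 were higher and 279 lower, and leaving out a pair gave 123 to 295 and 288 to 469. With no limit on dim probesets, and also with no intensity trend, limma called 0 higher and 0 lower, with 4551 and 3089 at an unadjusted p under 0.05, and the cause was not tested. The median over all probesets moved by 0.05 with the values as deposited and 0.04 with quantile normalization. Probesets near the array median have no depth or detection call here, so the dim ones of Mt1, Tfrc and Slc39a14 may lie near background.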

Other observations

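The probeset that lists both Trf, transferrin, and Srprb read 643, 590 and 567 in KRAP-/- and 596, 584 and 622 in wild-type liver, with a log2 fold change of 0.00 (standard error 0.08, 95% interval −0.18 to 0.18, limma adjusted p = 0.993), and its signal cannot be assigned to either gene.

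Within the list of the hepcidin pathway, 6 of 20 genes had an unadjusted p under 0.05, against 14.9% over the array, and the following were chosen after their values were seen. Hfe, which works with transferrin receptor 2, read 24.2, 23.4 and 25.1 in KRAP-/- and 32.8, 28.6 and 30.0 in wild-type liver (log2 fold change −0.33, adjusted p = 0.145). Hjv, the BMP co-receptor hemojuvelin, read 34.9, 33.5 and 36.5 against 47.7, 39.3 and 39.3 (−0.26, adjusted p = 0.256). Bmp2, a ligand that also drives Hamp, read 11.3, 12.4 and 11.99 against 9.53, 8.97 and 9.51 (0.35, adjusted p = 0.201). These groups did not overlap for any of the 3 genes, lower for Hfe and Hjv and higher for Bmp2, and none of them passed. Over all probesets tested, the groups did not overlap in 12.3% with KRAP-/- lower and in 7.80% with KRAP-/- higher. Acvr1, a BMP receptor, had 0.27 (adjusted p = 0.332), and Id3 is the sixth. Hamp2, a neighbour of Hamp with a closely related sequence, read 281, 278 and 228 against 521, 429 and 205 (−0.45, adjusted p = 0.246). The Hamp2 probeset is of a type whose probes can bind related transcripts, so it may not measure Hamp2 alone. As for Mt2, the wild-type liver of pair 3 was the lowest of the 6 at this probeset and those of pairs 1 and 2 the highest.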
